A study of Mus musculus with 6 samples.

Results

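The genes described are 10 chaperones and co-chaperones of the endoplasmic reticulum (ER), namely Hspa5, Dnajb11, Dnajc3, Sil1, Hyou1, Manf, Sdf2l1, Calr, Canx and Hsp90b1. They were chosen by gene symbol for their place in the BiP and calnexin cycles, and each matched 1 of the 22564 protein-coding genes of the deposited table. RNA sequencing covered 6 liver libraries of male C57BL/6 mice, all 10 weeks old at sampling per the labels, with 3 libraries of controls and 3 of mice under low-dose tunicamycin (0.2 mg/kg, intraperitoneal, every day over 14 days). The labels do not say whether controls received vehicle, which C57BL/6 substrain was used, or whether every library came from its own mouse. The p-values therefore rest on the spread between these libraries, which may be partly technical. In the main test (limma) that spread was a trend over all genes, and a gene's own spread had no weight. In bulk RNA, fewer cells of a type and less RNA per cell cannot be told apart.

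BiP, the product of Hspa5, is the HSP70 of the ER: it binds unfolded stretches of secretory proteins with ADP bound and releases them once ATP replaces ADP. J-domain proteins such as DNAJB11 and DNAJC3 bring it clients and stimulate its ATPase, and the exchange factors SIL1 and HYOU1 remove the ADP. Calnexin and calreticulin hold glycoproteins by a single glucose left on the N-linked glycan, and hepatocytes, which secrete most plasma glycoproteins, depend on both cycles. Tunicamycin blocks the first step of N-glycan synthesis, so that new glycoproteins lack the tag that the lectin chaperones read. The unfolded protein response then raises transcription of many of these genes through the ER stress response element (ERSE), a CCAAT box bound by NF-Y and a CCACG box bound by ATF6 or XBP1.

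The promoter letters are shown because ERSE is the textbook route from ER stress to these genes. The genes were chosen by symbol, but many are known targets of that route, so matches in them are no independent finding. RefSeq promoters (GRCm38.p6, the build of mm10; 250 bases before to 50 after a gene's start) were at hand for 7 of the 10 genes. On either strand, ERSE (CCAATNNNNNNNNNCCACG) was in 5 of these 7, at 6 sites, and in 39 of all 32851 promoters (0.119%). The compact form ERSE-II (ATTGGNCCACG, which overlaps the ERSE boxes in part) was in 1 of the 7 and in 12 of all promoters (0.0365%). The UPRE core (TGACGTGG), another site of XBP1, was in none of the 7 and in 0.676% of all. Sdf2l1 was searched and held none of the 3 motifs in this window, which says nothing of the factors themselves. A match of letters is a description and not a measured binding site. The windows below run 5′ to 3′ along the strand of the gene with the motif in capitals and 9 flanking bases on each side, and in Calr and at the near Hsp90b1 site the motif stands in reverse complement.
Hspa5 (chr2:34772016-34772052, + strand): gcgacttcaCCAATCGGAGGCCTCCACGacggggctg
Calr (chr8:84847066-84847102, - strand): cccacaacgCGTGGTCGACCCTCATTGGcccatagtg
Hsp90b1, far site (chr10:86705629-86705665, - strand): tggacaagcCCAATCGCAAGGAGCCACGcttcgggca
Hsp90b1, near site (chr10:86705524-86705560, - strand): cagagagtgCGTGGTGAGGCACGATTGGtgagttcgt
Canx (chr11:50325791-50325827, - strand): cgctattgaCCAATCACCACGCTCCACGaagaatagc
Dnajc3 (chr14:118937818-118937854, + strand): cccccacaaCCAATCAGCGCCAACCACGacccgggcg
Dnajb11, ERSE-II (chr16:22857843-22857871, + strand): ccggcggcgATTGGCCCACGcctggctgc

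Distances are counted from the RefSeq start, which lay 120, 65 and 3 bases downstream of the GENCODE M21 start used for the gene spans below in Hspa5, Hsp90b1 and Calr, 44 bases upstream of it in Dnajc3, and at the same base in Canx, Sdf2l1 and Dnajb11. The ERSE of Hspa5 began 65 bases before the RefSeq start, inside the GENCODE span of the gene, those of Dnajc3, Canx and Calr 105, 145 and 162 bases before it, and those of Hsp90b1 212 and 107 bases before it, whereas the ERSE-II of Dnajb11 lay just after the start. The 250 bases before the RefSeq start of Hspa5 (chr2:34771840-34772089, + strand) are given whole, since Hspa5 is the usual reporter of ER stress, with ERSE in capitals.
Hspa5 promoter: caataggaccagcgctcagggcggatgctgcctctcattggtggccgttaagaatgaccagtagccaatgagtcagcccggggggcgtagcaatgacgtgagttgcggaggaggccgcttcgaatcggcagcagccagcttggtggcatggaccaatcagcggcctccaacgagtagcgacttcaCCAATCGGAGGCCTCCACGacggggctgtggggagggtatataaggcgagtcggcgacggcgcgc

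Values are given as FPKM, in which the authors divided fragments by transcript length and sequencing depth, and as whole reads recovered from the authors' scaled count columns, 541022 to 661145 per library over protein-coding genes. RPM are these reads scaled to a library total of 1000000. The libraries were sparse: 61.3% of the table's genes were at 0 in all 6 libraries. Only 4.98% (1124 genes) were above 0 in all 6, with control 1 holding the fewest genes (3046, against 4244 to 5482 in the others). Over genes with a mean of at least 1 FPKM, log2(FPKM + 1) correlated at 0.279 to 0.347 between libraries of the same group. Between groups it correlated at 0.272 to 0.375, so libraries of the same group were no more alike than those of different groups. Of 12 hepatocyte markers 8 were at 0 in all 6 libraries, Ttr, Apoa1, Serpina1a, Ahsg, Cps1, Ass1, Cyp2e1 and Cyp1a2, beside the 61.3% of all genes. Alb and Hnf4a were above 0 in all 6. Whether the zeros of these markers reflect the tissue, the sparse libraries or the processing was not tested. The list summed to 322 to 492 FPKM in controls 1 to 3, against 114 to 143 after tunicamycin, without overlap. The sums came mostly from Alb, with Hnf4a in control 1 (262 FPKM from 115 reads) and Apoa2 in control 3 (102 FPKM from 54 reads, 0 elsewhere). In the limma fit described below, 0 of the 3 genes tested, Alb, Apoa2 and Hnf4a, were called (adjusted p = 0.852 for Alb). The part of this list in the values below was not tested. Markers of other secretory cells were at 0 throughout (3 of 3 of B and plasma cells in the table, 4 of 4 of exocrine pancreas), as were 4 of 4 of endothelium, 2 of 3 of Kupffer cells and 3 of 4 of stellate cells, while 4 epithelial markers (Krt7 and Krt19 among them) summed to 139 to 195 FPKM in controls 1 to 3, against 124 to 209 after tunicamycin.

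Tunicamycin and control libraries were compared for each chaperone, the question being whether 14 days of low-dose drug left a change in the ER folding machinery. Of the 10 genes, 5 (Hspa5, Hyou1, Calr, Canx and Hsp90b1) were above 0 in all 6 libraries, 4 (Dnajb11, Dnajc3, Manf and Sdf2l1) in some, and Sil1 in none. The 9 genes with a mean of at least 1 FPKM were tested with limma on log2(FPKM + 1), and 0 of 9 passed a Benjamini-Hochberg adjusted p under 0.05 over all genes, against 5 of 7696 genes, or 0.0650%. At an unadjusted p under 0.05 limma also gave 0 of the 9. On whole reads 0 of 9 passed by edgeR (0.0390% of all genes did) and 0 of 9 by DESeq2 (0.442%). DESeq2 gave no adjusted p for 3411 of the 7696 genes, Dnajb11 among them, and these are counted here as not passing. At an unadjusted p under 0.05 both tools again gave 0 of the 9. In 0 of the 9 did the groups of FPKM fail to overlap, against 5.74% of all genes tested. Positive log2 fold changes numbered 6 and negative 3 (52.1% of all genes were positive), with a median of 0.39 against 0.10 for all genes.

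**Figure D1:**
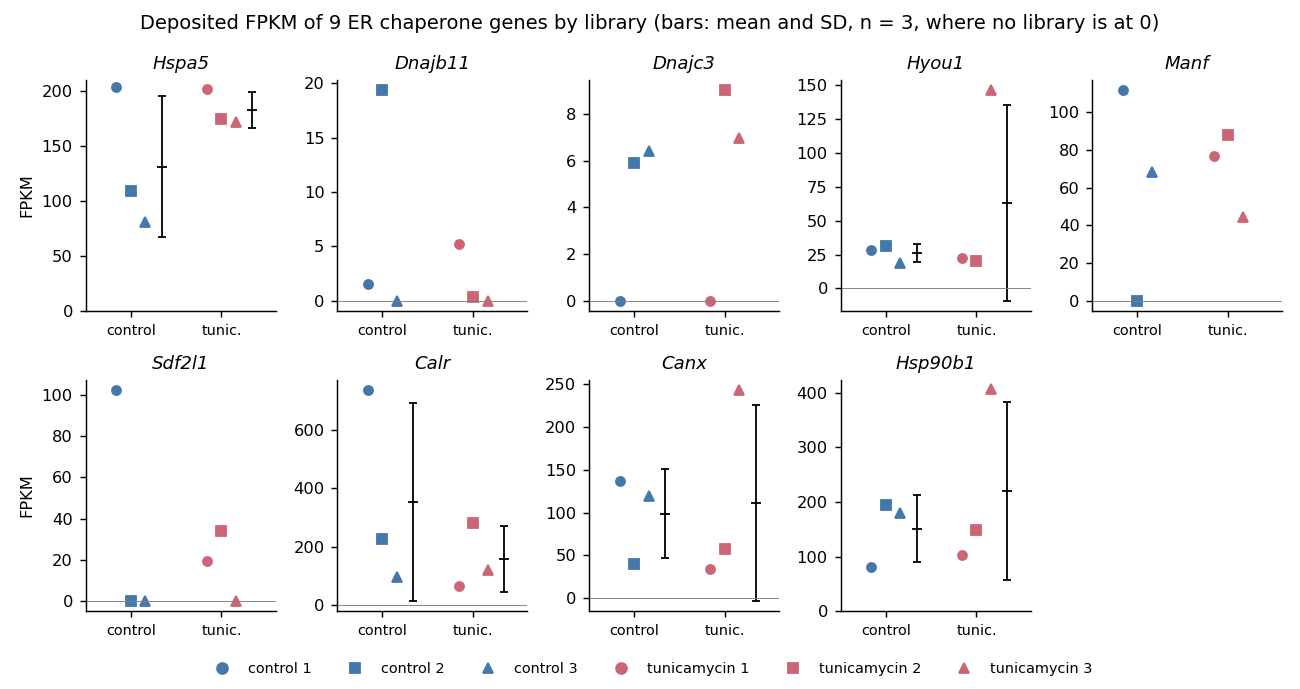
FPKM (y axis, linear, a scale per gene) of 9 ER chaperone genes in each control (blue) and tunicamycin (red) library; circles, squares and triangles are replicates 1, 2 and 3, and bars give the mean and SD of 3 libraries for genes with no library at 0. The groups overlap for every gene shown, Calr peaks in control 1 (737 FPKM), and Hyou1, Canx and Hsp90b1 peak in tunicamycin 3 (146, 243 and 407 FPKM).

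BiP (Hspa5, ENSMUSG00000026864, chromosome 2, 34771970 to 34777547, plus strand in GENCODE M21) had a coefficient of variation of 32.0% over the 6 libraries in FPKM, the lowest of the 5 genes detected throughout, and of 41.1% in RPM, where Hsp90b1 was lower (29.3%). Its FPKM was 204, 109.7 and 81.3 in controls 1, 2 and 3 and 202, 175 and 172 in tunicamycin 1, 2 and 3. All 3 tunicamycin libraries lay above controls 2 and 3 and below control 1, so the groups overlapped. The means were 132 ± 63.98 and 183 ± 16.2 FPKM (SD, n = 3 each), a ratio of 1.39 and a log2 fold change of 0.58 with an SE of 0.84 (limma adjusted p = 0.869, 95% interval -1.07 to 2.22). A rise of up to 2.22 or a fall by 1.07 on the log2 scale was thus within the error by that SE. It comes from the variance trend over all genes, whereas the spread of Hspa5 alone gave an SE of 0.39. In reads, Hspa5 held 282, 479 and 374 in controls, and 442, 748 and 338 in the treated libraries. Tunicamycin 2 was the highest and the other tunicamycin libraries lay among the controls, with means of 639 ± 167 and 881 ± 415 RPM (SD, n = 3 each). Control 1, the highest control in FPKM, was the lowest of all 6 in reads. The log2 fold change of Hspa5 was positive in 16 of 16 alternatives, 0.29 to 0.94, and called in none, with adjusted p of 0.678 to 1.000. These alternatives reuse the same libraries and are not independent. A changed filter, variance trend or replicate block left the limma value at 0.58 by construction.

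The J-domain co-chaperones were low. Dnajb11 (ERdj3, chromosome 16, 22857845 to 22879634, plus strand), which binds unfolded clients and passes them to BiP, was at 1.56, 19.4 and 0 FPKM in controls 1 to 3, against 5.26, 0.380 and 0 in tunicamycin 1 to 3, from 4, 52 and 0 and from 15, 1 and 0 reads. Only control 2 held more than 15 reads, and 1 library of each group was at 0. Its log2 fold change was -0.86 (SE 1.92, limma adjusted p = 0.934), and without control 2 it was 0.36. Dnajb11 overlaps the antisense gene Gm30505, and no source used here says whether the counting used strand, so reads of the pair may be mixed. Dnajc3 (p58IPK, chromosome 14, 118937976 to 118981697, plus strand), a BiP co-chaperone first described as an inhibitor of the kinase PKR, was at 0, 5.92 and 6.42 FPKM in controls 1 to 3, against 0, 9.02 and 6.96 in tunicamycin 1 to 3. Its 2 detected tunicamycin libraries stood above its 2 detected controls, and replicate 1 of each group was at 0. Its reads were 0, 55 and 63 and then 0, 82 and 66, and the log2 fold change was 0.21 (SE 2.05, limma adjusted p = 0.999), turning to -0.74 without control 1, -0.40 without tunicamycin 2 and -0.23 without tunicamycin 3.

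The exchange factors differed in detection. Sil1 (chromosome 18, 35266396 to 35499780, minus strand), which removes ADP from BiP, was at 0 FPKM and 0 reads in all 6 libraries. At 3 reads per library, that leaves room for 0.000454% to 0.000555% of the reads, by counting error only. This bound takes reads as independent. Typical read numbers of detected genes were 40 to 142 (described below), so the bound may be too low. Hyou1 (GRP170, chromosome 9, 44379490 to 44392369, plus strand), a large HSP70 relative that also acts as an exchange factor for BiP, was above 0 in all 6. It lay at 28.1, 31.2 and 18.7 FPKM in controls 1 to 3, against 22.5, 20.1 and 146 in tunicamycin 1 to 3. Tunicamycin 3 stood far above the other 5 libraries, while tunicamycin 1 and 2 lay within the range of the controls. The means were 26.03 ± 6.51 and 63.02 ± 72.3 FPKM (SD, n = 3 each), for a log2 fold change of 0.66 with an SE of 1.47 (limma adjusted p = 0.934). Without tunicamycin 3 the log2 fold change was -0.25. In reads Hyou1 held 116, 185 and 120 in controls, and 187, 123 and 341 in the treated libraries. Tunicamycin 3 was again the highest, by a smaller margin than in FPKM, and tunicamycin 1 and 2 reached 306 and 222 RPM against 182 to 320.5 in controls.

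Manf and Sdf2l1 encode small soluble partners of BiP. MANF (chromosome 9, 106838312 to 106891979, minus strand), which binds ADP-bound BiP and slows its release of clients, was at 112, 0 and 68.5 FPKM in controls 1 to 3, against 77.02, 88.1 and 44.2 in tunicamycin 1 to 3. Control 2 was the only library at 0, and the highest value was a control's. The log2 fold change of Manf was 1.78 (SE 1.42, limma adjusted p = 0.852), the highest of the 9, and it rested on that 0: without control 2 it was -0.38. The reads of Manf were 152, 0 and 102 in controls, and 52, 52 and 65 in the treated libraries, so both detected controls exceeded every tunicamycin library, and edgeR gave -0.33 (edgeR adjusted p = 1.000). Its annotated span overlaps Dcaf1 and Rbm15b, which makes its reads less certain. SDF2L1 (chromosome 16, 17130138 to 17132383, minus strand), which forms a complex with DNAJB11 and keeps clients from aggregating, was at 102, 0 and 0 FPKM in controls 1 to 3, against 19.6, 33.7 and 0 in tunicamycin 1 to 3. It held 168 reads in control 1, 36 and 57 in tunicamycin 1 and 2, and 0 in the other libraries. The log2 fold change of Sdf2l1 was 0.93 (SE 2.02, limma adjusted p = 0.933) on FPKM and -0.45 by edgeR on reads (edgeR adjusted p = 1.000), and it was 3.16 without control 1 and -0.19 without control 2.

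The lectin chaperones calreticulin and calnexin are the soluble and the membrane-bound reader of the glucose tag. Calr (ENSMUSG00000003814, chromosome 8, 84841850 to 84846934, minus strand) was at 737, 226 and 95.6 FPKM in controls 1 to 3, against 64.6, 283 and 121 in tunicamycin 1 to 3. Control 1 was higher than any other library, and the other controls lay within the range of the tunicamycin libraries. The means were 353 ± 339 and 156 ± 113 FPKM (SD, n = 3 each), a ratio of 0.44 and a log2 fold change of -0.95 with an SE of 0.77 (limma adjusted p = 0.852, 95% interval -2.45 to 0.56). Leaving out control 1 moved the log2 fold change of Calr to -0.17, and leaving out control 3 to -1.64. In reads, Calr held 1615, 603 and 374 in controls, and 254, 516 and 458 in the treated libraries, with control 1 again the highest (2985 RPM, against 416 to 1045 in the other 5). The direction was negative in 16 of 16 alternatives, with adjusted p of 0.642 to 0.957, though these are not independent and some cannot move the value. Reads of the pseudogene Calr-ps may be shared with Calr.

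Canx (chromosome 11, 50293961 to 50325673, minus strand) was at 137, 39.3 and 119.5 FPKM in controls 1 to 3, against 33.6, 57.4 and 243 in tunicamycin 1 to 3. The highest and the lowest of the 6 values both belonged to tunicamycin libraries. Its means were 98.6 ± 52.1 and 111 ± 115 FPKM (SD, n = 3 each), for a log2 fold change of -0.15 with an SE of 1.07 (limma adjusted p = 0.999). That direction turned when control 1, control 3, tunicamycin 1 or tunicamycin 2 was left out (0.18, 0.08, 0.45 and 0.07). The reads of Canx numbered 550, 262 and 842 in controls, and 236, 375 and 428 in the treated libraries, and tunicamycin 3, the peak in FPKM, lay within the controls' range, at 719 RPM against 454 to 1274.

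GRP94 (Hsp90b1, chromosome 10, 86690209 to 86705509, minus strand), the HSP90 of the ER, folds integrins and Toll-like receptors among other clients after BiP has released them. It lay at 80.5, 194 and 179.6 FPKM in controls 1 to 3, against 104, 149 and 407 in tunicamycin 1 to 3. Tunicamycin 3 stood above the other 5 libraries, and tunicamycin 1 and 2 lay within the controls' range. The means were 151 ± 61.8 and 219.9 ± 163 FPKM (SD, n = 3 each), for a log2 fold change of 0.39 with an SE of 0.81 (limma adjusted p = 0.930). Without tunicamycin 3 it was -0.18, and without control 1 it was -0.01. In reads Hsp90b1 held 379, 337 and 774 in controls, and 539, 716 and 537 in the treated libraries, so tunicamycin 3 was not high in reads. The tunicamycin libraries spanned 882 to 1293 RPM and the controls 584 to 1171. On the opposite strand its locus overlaps the transcribed pseudogene 1810014B01Rik.

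**Figure D2:**
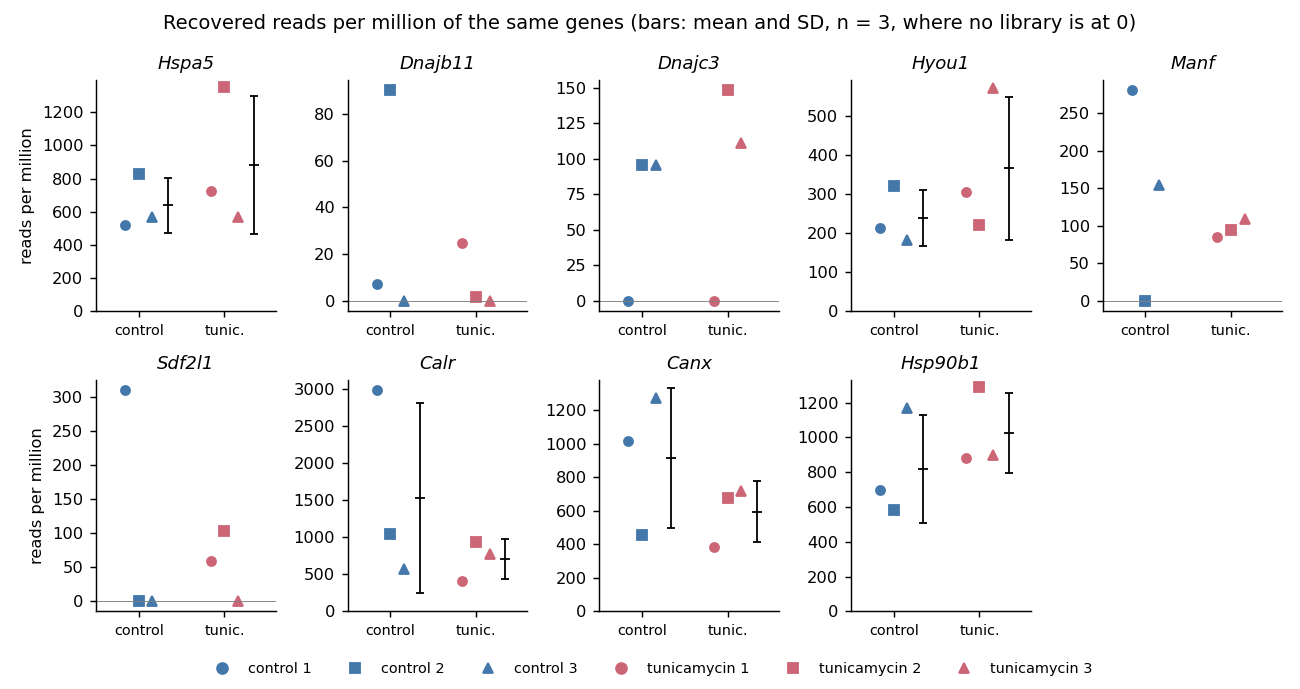
Recovered whole reads, in RPM (y axis, linear, a scale per gene) for the same 9 genes, with symbols and bars as in the plot of FPKM. The peak of tunicamycin 3 seen in FPKM is absent for Canx and Hsp90b1, that of Hyou1 is smaller (573 RPM), and that of Calr in control 1 remains (2985 RPM).

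Across genes, FPKM being per length, the 5 detected throughout ranged from Calr (64.6 to 737) over Hsp90b1 (80.5 to 407), Hspa5 (81.3 to 204) and Canx (33.6 to 243) to Hyou1 (18.7 to 146), in order of the mean. Each of these ranges overlapped the next. Within every library Canx stood above Hyou1, whereas the other neighbours changed order between libraries, and no test between genes was run. Calr, Hsp90b1 and Hspa5 ranked 85, 131 and 159 by mean FPKM among the 8738 genes above 0 in any library. The leading chaperone changed between libraries: it was Calr in controls 1 and 2 and tunicamycin 2, Hsp90b1 in control 3 and tunicamycin 3, and Hspa5 in tunicamycin 1. Together the 10 genes took 0.604%, 0.342% and 0.401% of the reads in controls and 0.288%, 0.482% and 0.375% after tunicamycin. Both groups spanned overlapping ranges, 0.449 ± 0.137% and 0.382 ± 0.0971% (SD, n = 3 each). For control 1 the 95% Wilson interval was 0.583% to 0.625%, narrow beside the spread between libraries. That interval holds counting error only and takes reads as independent, so with bunched read numbers (described below) it may be too narrow.

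FPKM and reads ranked the libraries differently. FPKM divides the fragments of a gene by the length of the transcripts they are assigned to, so reads per FPKM give that length, here put on a scale of nucleotides with genes of a single annotated transcript. For Hspa5 the implied length was 2537, 2539 and 2519 nt in control 2, control 3 and tunicamycin 2, and 830, 1203 and 1110 nt in control 1, tunicamycin 1 and tunicamycin 3. The latter libraries thus had a higher FPKM per read. For Hsp90b1 it was 748 nt in tunicamycin 3 and 1009 nt in control 2, against 2379 to 2839 nt in the other 4. Canx stood at 997 nt in tunicamycin 3 against 2406 to 3889 nt elsewhere, and Hyou1 at 1318 nt there against 2473 to 4553 nt. The FPKM peaks of these 3 genes in tunicamycin 3 therefore coincided with the shortest implied length of each. Calr implied 1076 nt in tunicamycin 2 and 2159 nt in control 3.

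Among the chaperones with at least 10 reads in all 6 libraries, 5 of 5 had a longest implied length at least 2 times the shortest (2.01 to 3.90 times). Of the 737 genes of the table with as many reads, 48.8% did, with a median of 1.93. Other chaperones stayed level where they could be measured. Dnajc3, with 1 annotated transcript, implied 5358 to 5419 nt in 4 libraries (5141 nt annotated) and Sdf2l1, also with 1, 984 to 1009 nt in 3 (1108 nt annotated). Dnajb11, with 4 annotated transcripts, implied 1561 and 1563 nt in the 2 libraries with at least 10 reads. Hspa5, Calr, Canx, Hsp90b1 and Hyou1 have 6, 4, 5, 5 and 9 annotated transcripts. Manf, with 7, implied 816 to 832 nt in 3 libraries and 370 and 348 nt in tunicamycin 1 and 2, where its FPKM was high for 52 reads each.

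**Figure D3:**
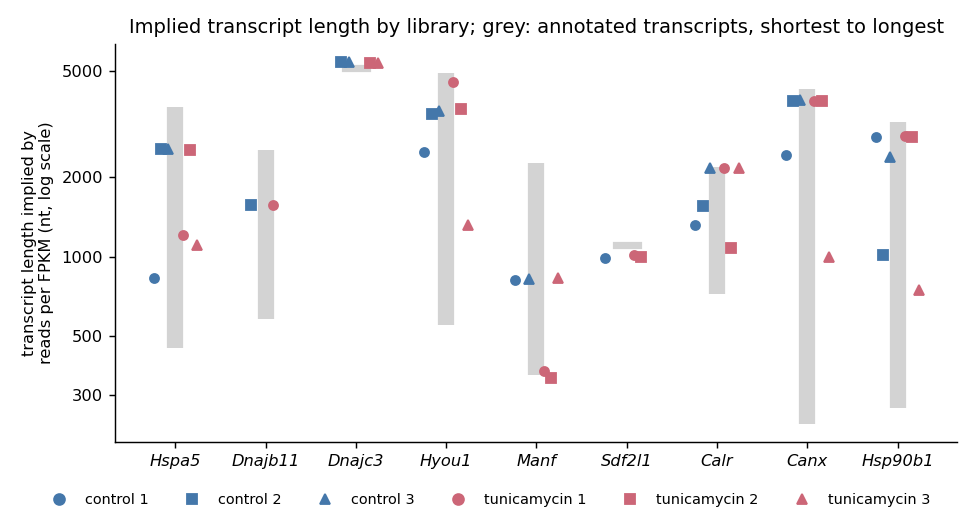
Transcript length implied by reads per FPKM (y axis, nt, log scale) for each gene and library with at least 10 reads; symbols are libraries as in the other plots and grey bars span the shortest to the longest transcript annotated in GENCODE M21. Dnajc3, Sdf2l1 and Dnajb11 each sit near 1 length, and Hyou1, Canx and Hsp90b1 drop to 1318, 997 and 748 nt in tunicamycin 3.

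Read numbers were bunched. The typical read number of a library, the median of the 0.3-wide log2 window that held the most genes, was 142, 45 and 54 in controls, and 40, 68 and 73 in the treated libraries, and 1340 to 2102 genes lay within 1.5-fold of it. The 4 chaperones detected in some libraries had 24 values, of which 8 were 0, 3 were 1 to 15 reads and 13 were 0.76 to 1.89 times that number. Dnajc3, for example, held 1.22, 1.17, 1.21 and 0.904 times it in the 4 libraries where it was found. The 5 chaperones detected throughout held 0.817 times it (Hyou1 in control 1) to 15.6 times it (Canx in control 3). For Dnajc3, Manf and Sdf2l1 a difference between 0 and a detected level thus spanned about 1 such step. It occurred within both groups for Dnajc3 and Sdf2l1, and among the controls for Manf. Dnajb11 reached that level in control 2 (1.16 times) and lay at 0 to 0.375 times it in the other 5 libraries.

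**Figure D4:**
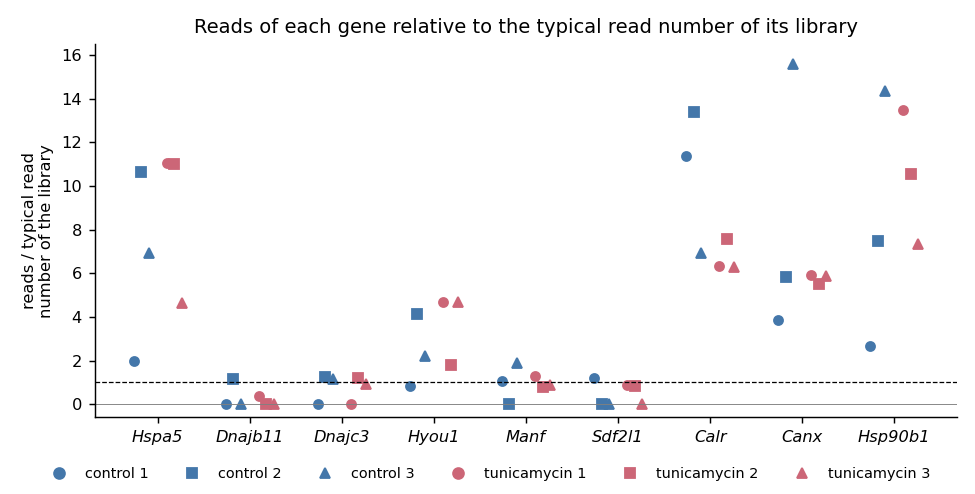
Reads of each gene divided by the typical read number of its library (y axis, linear; dashed line at 1), for 9 ER chaperone genes in 6 libraries. Dnajc3, Manf and Sdf2l1 sit at 0 or near 1 in every library, up to 1.89, whereas Hspa5, Calr, Canx and Hsp90b1 lie between 1.99 and 15.6.

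**Figure D5:**
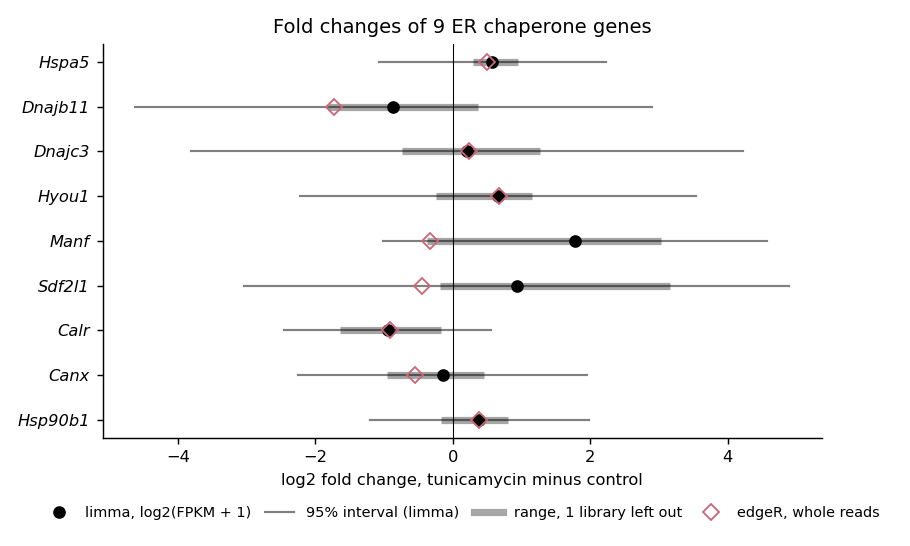
Log2 fold change, tunicamycin minus control (x axis), of 9 ER chaperone genes: limma on log2(FPKM + 1) (black point) with its 95% interval (thin line), the range with any 1 library left out (thick line), and edgeR on whole reads (open diamond). Every interval includes 0, and the points of Manf (1.78 and -0.33) and Sdf2l1 (0.93 and -0.45) change side between FPKM and reads.

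The enzymes that act with calnexin and calreticulin showed no called gene. Of 12 such genes 8 were tested, 4 positive and 4 negative, with 0 called by limma and a median log2 fold change of 0.11 (all genes 0.10). The list summed to 157 to 379 FPKM in controls, which enclosed the 231 to 289 FPKM after tunicamycin. PDIA3, the disulfide isomerase that binds both lectins, was at 304, 37.2 and 62.0 FPKM in controls 1 to 3, against 135, 62.1 and 26.9 in tunicamycin 1 to 3, peaking in control 1 like Calr. MOGS, the glucosidase that trims the outermost glucose, had 25.7, 7.47 and 11.8 FPKM in controls, against 17.5, 32.4 and 20.1 in tunicamycin 1 to 3. EDEM3, a mannosidase of ER-associated degradation, had 9.26, 3.86 and 14.4 FPKM, against 6.47, 6.35 and 11.1 in the same order. Groups overlapped for all 3. Uggt1, which puts the glucose tag back on misfolded glycoproteins, had 0, 69.8 and 125 FPKM, against 20.6, 8.85 and 76.2 in that order, while Uggt2, Clgn and Edem1 were at 0 in all 6 libraries.

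Of 9 other ER J proteins and BiP partners 6 were tested, 5 positive and 1 negative, with 0 called by limma and a median log2 fold change of 1.26. The list summed to 20.8 to 38.2 FPKM in controls against 63.97 to 112 after tunicamycin, without overlap, and to 182 to 357 RPM against 289 to 537 in reads, with overlap. These sums are given as a description, with no test. Dnajc10, a J protein with reductase activity, was the only one found in every library, with 20.8, 18.3 and 32.6 FPKM in controls 1 to 3, against 34.7, 27.5 and 9.30 in tunicamycin 1 to 3. The positive values came from genes at 0 in at least 1 control. Dnajc1, Dnajc25 and Creld2 were at 0 in all 3 controls. They passed the filter through tunicamycin libraries only, so their sign was fixed in advance. Dnajc25, for example, stood at 18.4, 38.9 and 0 FPKM in tunicamycin 1 to 3. The count by direction, the median and the sums of this list rest in part on these genes and are no support for a rise. Among 12 regulators of the unfolded protein response 11 were tested, 4 positive and 7 negative, with 0 called by limma and a median of -0.76, and the list summed to 109 to 322 FPKM in controls against 84.98 to 288 after tunicamycin, with overlap. Atf6, the ER-bound factor that acts on ERSE, was at 3.97, 7.48 and 9.53 FPKM in controls 1 to 3, against 2.11, 0.780 and 5.91 in tunicamycin 1 to 3, with overlap and a log2 fold change of -1.18 (limma SE 2.05, adjusted p = 0.905). Atf4, the factor of the integrated stress response, gave 98.9, 70.2 and 88.1 FPKM in the 3 controls, against 98.5, 19.2 and 43.3 in the treated libraries, also with overlap. edgeR and DESeq2 also called 0 genes of each of these 3 lists. At an unadjusted p under 0.05 limma and edgeR gave 0 in each, and DESeq2 gave 1 of the 6 J proteins and partners and 0 in the other lists. In 10 of the 12 regulators at least 1 library was at 0, including Nfya, Nfyb and Nfyc, the subunits of NF-Y.

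Outside the 10 chaperones, 18 genes of the table had ERSE letters in a RefSeq promoter, a list drawn up after the values were seen. Of these, 8 were at 0 in all 6 libraries and 8 were tested, 6 positive and 2 negative with a median of 0.89. Over all genes tested 52.1% were positive, with a median of 0.10. The 6 positive genes were each at 0 in at least 2 controls. Among them, Syvn1 and Creld2, the latter also in the list of BiP partners, were at 0 in every control. They passed the filter through tunicamycin libraries only, so their sign was fixed in advance. The count by direction and the median are thus no support for a rise. The 2 negative genes, Pdia6 (-0.67) and Zfp57 (-1.17), were the only 2 above 0 in all 6 libraries. Syvn1, the HRD1 ubiquitin ligase of ER-associated degradation, is singled out after its values were seen. Controls held 0 reads of it, and tunicamycin 1 to 3 held 53, 74 and 74 (10.4, 15.7 and 10.02 FPKM), without overlap. Groups of FPKM did not overlap, in either direction, in 5.74% of all genes tested. Syvn1 was not called (limma adjusted p = 0.852, edgeR adjusted p = 0.642). Its reads there were 1.01 to 1.32 times the typical read number of these libraries. Pdia6, another disulfide isomerase, was at 105, 16.4 and 107 FPKM in controls 1 to 3, against 20.02, 43.0 and 53.1 in tunicamycin 1 to 3, with overlap.

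The genes most like Hspa5 over the 6 libraries, among 1123 other genes above 0 in all 6, were Fam168b, Phc2 and Ddx23 (Pearson r of log2(FPKM + 1) 0.94, 0.93 and 0.91). These points share libraries and depth, and r over 6 points is given as a description. The other chaperones were less like it: r with Hspa5 was 0.28 for Calr, 0.23 for Hyou1, -0.01 for Canx and -0.33 for Hsp90b1.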

How the data were processed

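The labels' protocols give ribosomal RNA depletion of total RNA and stranded library preparation. CASAVA 1.8, cutadapt 1.9.3, HISAT2 2.0.4, the build mm10 and Cuffdiff of Cufflinks stand in the submitters' processing notes. The authors deposited FPKM per gene and library. Estimated counts per gene and library were deposited beside them, made by the authors in the same Cuffdiff step per the series' design text. These are scaled: 97.2% to 98.0% of values above 0 were whole multiples, within 0.01, of 1 step per library (0.9953 to 1.0953), and division by that step, with rounding, recovered whole reads. The table has 1 blank line, which was skipped.

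Groups come from the sample titles. limma 3.58.1 (R 4.3.3; variance trend, group only) was run on log2(FPKM + 1) for the 7696 genes with mean FPKM of at least 1, 2-sided, Benjamini-Hochberg adjusted over all of them. Its variance prior had infinite degrees of freedom, so each SE comes from the trend and a gene's own spread had no weight. The SE from a gene's own spread was smaller for Hspa5 (0.39), Dnajb11, Dnajc3, Hyou1, Canx and Hsp90b1. It was larger for Manf (2.19), Sdf2l1 (2.74) and Calr (1.05). Fold changes on this scale understate those of low genes. edgeR 4.0.16 (quasi-likelihood, TMM) and DESeq2 1.42.0 (poscounts size factors) on whole reads were alternatives. Steps were also run on simulated data, and the outcome is not given here. Implied lengths are scaled count per FPKM, scaled by the median over genes with 1 GENCODE M21 transcript of at least 1000 nt and at least 10 reads. All 10 chaperones are named, with the listed pathway genes above 0 in all 6 libraries and the 3 genes most like Hspa5; other genes, such as Uggt1, Dnajc25, Syvn1 and Pdia6, were named after values were seen. Chaperones and lists were chosen with earlier results of these data known.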

Additional observations from a re-analysis of the deposited data

How the results depend on the processing

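No chaperone was called under any of the 16 alternatives, and at an unadjusted p under 0.05 limma gave 1 of 9 without control 3 and 0 under every other limma setting. Hspa5 and Calr kept their direction in 16 of 16. That count is no independent support, since the alternatives share libraries and a changed filter, variance trend or replicate block cannot move a limma fold change. On reads the direction turned for Manf (-0.33 by edgeR, -0.62 by DESeq2) and Sdf2l1 (-0.45 and -1.02), and the median over the chaperones was -0.33 by edgeR and -0.62 by DESeq2. With 1 library left out, log2 fold changes ran from -0.96 to 0.45 for Canx, -1.81 to 0.36 for Dnajb11, -0.74 to 1.26 for Dnajc3, -0.18 to 0.80 for Hsp90b1, -0.25 to 1.15 for Hyou1, -0.38 to 3.03 for Manf and -0.19 to 3.16 for Sdf2l1, and the median from -0.23 to 0.51. The count over all genes (5) became 2 with a pseudocount of 10, 2 with a mean FPKM of at least 10, 3 by edgeR, 34 by DESeq2 (16 higher, 18 lower), and 0 to 7 with 1 library left out. It was 0 by limma without a filter (183 at an unadjusted p under 0.05; edgeR and DESeq2 were run on the filtered genes only) and 0 without the variance trend (289). With median-of-ratios or quantile scaling 4 were called, all higher. The cause was not tested. Replicate numbers are shared between groups. Deviations of same-numbered libraries correlated at -0.0140 to 0.00231, and those of differently numbered libraries at -0.00893 to 0.0179. Libraries of the same group correlated at only 0.279 to 0.347, so these values cannot settle whether the numbers pair libraries. With a replicate block 0 genes were called by limma (219 at an unadjusted p under 0.05). Reads of 541022 to 661145 per library, bunched at 40 to 142 per gene, limit what the low genes can show.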
